A study of Homo sapiens with 4 samples.

Results

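The genes described here are those of the long arm of chromosome 6 (6q) on both sides of SASH1, the gene targeted in this experiment. They were chosen by position and by level: their start in GENCODE release 29 on hg38 lay from 80 to 120 Mb, or from 140 Mb to the end of the chromosome, and their mean over the 4 libraries was at least 1 TPM (the share of a library's transcripts that a gene holds, scaled for gene length and library size). SASH1 itself and a fixed list of other symbols were left out, among them ribosomal, proteasome and NADH dehydrogenase genes, TTK, FOXO3, ESR1, EZR and SOD2. The rule gave 195 genes of the 14458 tested. With the same positions and left-out symbols but no limit on the level it would have given 360, and 22 tested genes of the windows, SASH1 among them, were left out by name. The 195 genes were 172 protein-coding genes, 7 antisense RNAs, 7 lincRNAs, 6 miRNA hairpins, 1 processed transcript and 2 transcribed pseudogenes. The windows had been selected on the log2 changes of their genes in this same comparison, so the shift of the region, and every count of its genes past the threshold, is given as a description and not as a test.

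RNA was sequenced from MDA-MB-468, an established human line from a triple-negative breast cancer. The shControl group held 2 libraries of cells infected with the pGIPZ-CTRL lentivirus, and the shSASH1 group held 2 libraries of cells infected with a lentivirus carrying a short hairpin RNA against SASH1; both were kept as stable clones under puromycin. How many clones or hairpins each group stands for is not in the labels, and nothing there ties its 2 libraries to different cultures. A p-value therefore reflects the spread of these libraries alone, and that spread may be technical. In bulk RNA, fewer cells that express a gene and less RNA per cell cannot be told apart.

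The long arm of chromosome 6 is among the chromosome arms often lost in breast and other cancers, and several candidate tumour suppressors have been proposed there, SASH1 among them. The SASH1 protein is an adaptor of signalling complexes. Its neighbours belong to no single pathway: they include chromatin regulators, mitochondrial enzymes, sorting nexins, ubiquitin ligases, receptors and extracellular matrix genes, most of them active in many cell types.

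The 5 basal breast and 5 epithelial markers examined were above 1 TPM in every library. The summed level of the basal markers was 2668 to 2775 TPM in shControl and 3252 to 4044 TPM in shSASH1, a difference that lay in EGFR, and that of the epithelial markers was 4684 to 4937 and 3805 to 4262 TPM. Of the fibroblast, leukocyte and endothelial markers, COL1A2, LUM and LYZ were listed at 0 in all libraries, and the leukocyte sum of 33.3 to 96.6 TPM was nearly all CD14. The part of these differences in the results below was not tested. The shSASH1 libraries were further apart than the shControl libraries, with a median within-group SD over all tested genes of 0.126 against 0.0507 log2 units. SASH1 measured 15 and 13 TPM under the control vector and 3.65 and 4.01 TPM under its hairpin, a log2 change of -1.63 ± 0.13 (SE; limma adjusted p = 0.00391).

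Most of the 195 genes were lower in shSASH1, most of them by less than 1 log2 unit. The median log2 change was -0.37, with the middle 50% of genes from -0.61 to -0.07, beside a median of 0.06 over all tested genes. All log2 changes were taken after adding 1 to TPM, and this understates the change of low genes. Of the 195, 157 had a change below 0, and in 132 both shSASH1 libraries lay below both shControl libraries, an order found in 32.3% of all tested genes. In 28 both lay above, against 41.3% of all tested genes, and in 35 the groups overlapped. At a limma adjusted p of 0.05 over all tested genes, 80 genes fell and 15 rose, where 13.3% of all tested genes were called lower and 18.8% higher. In no gene of the set that passed did the groups overlap, so a lack of overlap adds nothing to a call. The remaining 100 did not pass. Of the 80 genes that fell, 70 fell by less than 1 log2 unit. On the TPM scale, the 151 genes with a shControl mean of at least 5 TPM had a median shSASH1 to shControl ratio of 0.754, with quartiles of 0.645 and 0.898.

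**Figure D1:**
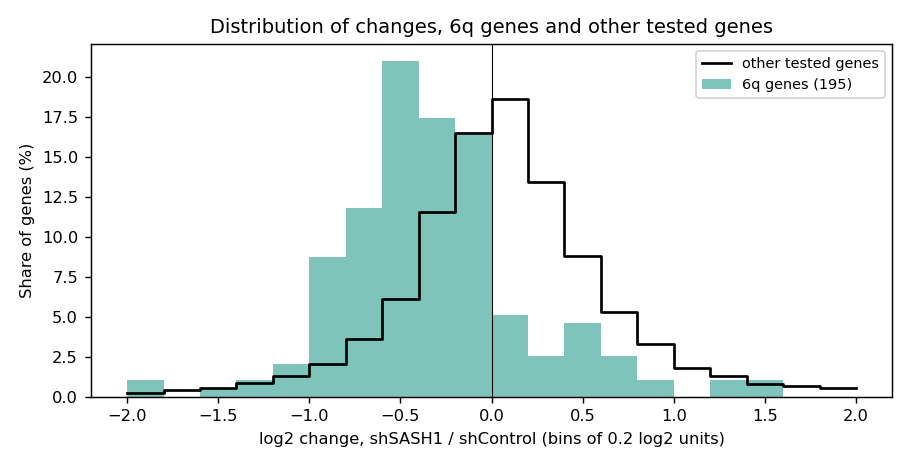
Share of genes (vertical axis, %) by log2 change between shSASH1 and shControl (horizontal axis, bins of 0.2 log2 units), for the 195 genes of 6q (bars) and all other tested genes (line). The bars are highest between -0.6 and -0.4, while the line is highest just above 0; 4 genes of 6q lie beyond 2 log2 units and outside the axis.

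Both shSASH1 libraries showed the shift. Against the shControl mean, the median gene of the set was at -0.37 in shSASH1 replicate 1 and at -0.32 in replicate 2. Within the groups, replicate 2 differed from replicate 1 by a median of -0.02 among the shControl libraries and 0.02 among the shSASH1 libraries. The median difference between the groups was larger than that between libraries of either group. The 65 most abundant genes of the set, with means from 34.8 to 1541 TPM, had a median of -0.40, the next 65 had -0.37, and the 65 least abundant, with means up to 9.76 TPM, had -0.26. Rebuilt from TPM and exon length, the median gene of the set had 671 reads as a mean over libraries, and 31 genes had under 100. The number of calls rested on the shControl pair. Without either shControl library 0 of the 195 genes passed in limma, though 65 were lower and 11 or 14 higher at an unadjusted p under 0.05, since the spread then comes from the wider shSASH1 pair alone.

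The shift was seen in both windows. The 114 genes from 80 to 120 Mb had a median of -0.35, with 48 that fell and 11 that rose, and the 81 genes from 140 Mb on had a median of -0.38, with 32 that fell and 4 that rose. By blocks of 10 Mb, the median of the set was -0.21 from 80 to 90 Mb (32 genes), -0.45 from 90 to 100 Mb (12 genes), -0.27 from 100 to 110 Mb (31 genes) and -0.35 from 110 to 120 Mb (39 genes). From 140 Mb it was -0.32, -0.43 and -0.35 in successive blocks of 26, 31 and 20 genes, and -0.50 in the 4 genes past 170 Mb. The 62 tested genes between the windows, from 120 to 140 Mb, had a median of -0.15, with 22 lower and 10 higher past the threshold. Towards the other end of the chromosome the median was 0.22 over 358 tested genes from its start to 40 Mb. From 40 to 50 Mb it was 0.26 over 84 tested genes, and from 50 to 60 Mb it was -0.20 over 31. From 60 to 80 Mb, next to the windows, it was -0.14 over 27 tested genes, of which 10 (37.0%) were lower and 6 higher past the threshold. These differences between parts of the chromosome were not tested, because the windows had been chosen on them.

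**Figure D2:**
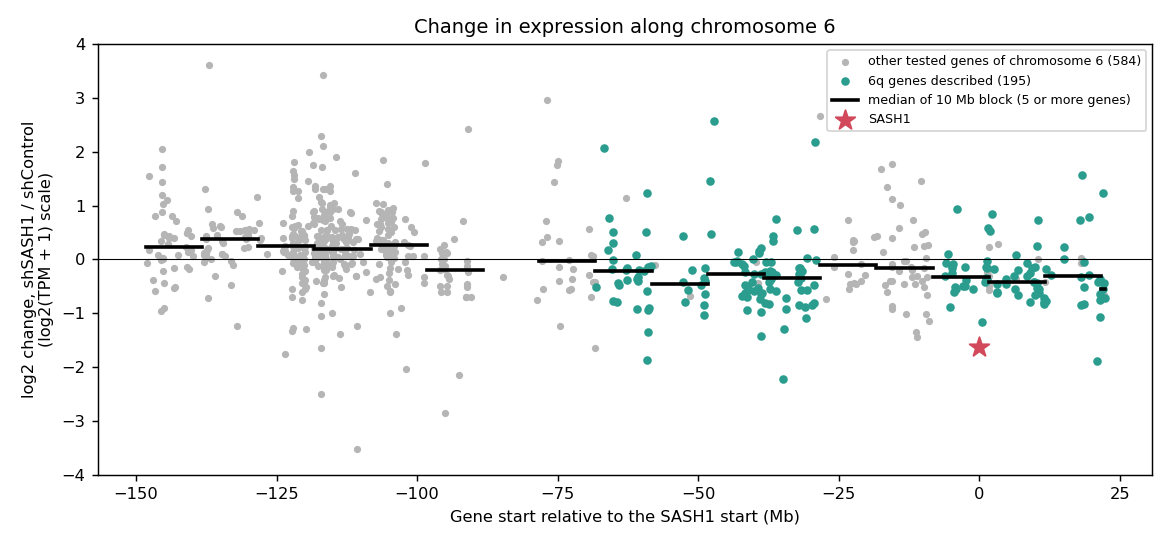
Log2 change between shSASH1 and shControl (vertical axis) of each tested gene of chromosome 6 by the distance of its start from the SASH1 start (horizontal axis, Mb), with the 195 genes described in green, other tested genes in grey, SASH1 as a star and the median of each 10 Mb block with at least 5 tested genes as a bar. The 5 block medians farthest to the left are above 0, and each block that holds green points has a median below 0.

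At the edges of the windows the values did not fall into 2 classes. At 80 Mb, ELOVL4 just outside had a log2 change of -1.64, and TTK just inside, which the rule leaves out by name, had -0.41. At 120 Mb, MAN1A1 just inside had -0.01 and the miRNA hairpin MIR3144 just outside was listed at 0 in shControl, with 3.86 and 7.25 TPM in shSASH1. At 140 Mb, CITED2 just outside had -1.14 and VTA1 just inside had -0.31. At the limit of 1 TPM, DSE had a mean of 1.07 TPM and RSPH4A, left out, a mean of 0.929 TPM.

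SASH1 lies in a stretch where most neighbours were lower but few changed as much as it did. UST, a sulfotransferase of chondroitin and dermatan sulfate, is the nearest gene of the set after SASH1 (chromosome 6, 148747328 to 149076990, plus strand, hg38). It stood at 19.5 and 18 TPM in shControl and at 9.34 and 6.48 TPM in shSASH1, with no overlap between the groups, and fell by 1.17 ± 0.18 on the log2 scale. STXBP5 (147204425 to 147390476, plus strand), a syntaxin-binding protein and the nearest before SASH1, stood at 11.2 and 9.39 TPM and at 6.69 and 6.76 TPM, and fell by 0.55 ± 0.13. The next genes on the side of STXBP5 were the helicase SHPRH (-0.39, not past the threshold), the F-box protein FBXO30 (-0.50, past it), the antisense RNA EPM2A-DT (-0.14, not past it) and the laforin gene EPM2A (-0.49, not past it). On the side of UST they were SUMO4 (-0.43, from 10 to 19 rebuilt reads per group, not past it), the cyclophilin PPIL4 (-0.14, not past it), the membrane glycoprotein GINM1 (-0.34, past it) and the katanin subunit KATNA1 (-0.38, past it). All 10 had a change below 0, and 5 of them passed. The order of the groups was not the same in all: in PPIL4 and EPM2A-DT a shSASH1 library lay within the range of the shControl libraries.

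Among protein-coding genes with at least 5 TPM in a group, the largest fall was in SMPD2, a neutral sphingomyelinase (109440763 to 109443919, plus strand). It stood at 47.3 and 44.9 TPM in shControl and at 17 and 16 TPM in shSASH1, 2.79-fold lower, with a log2 change of -1.43 ± 0.08. About 20.3% of its exon bases are shared with a gene on the opposite strand, and the use of strand in counting is not given in the sources used here. RRAGD, a Rag GTPase that carries amino acid signals to the kinase complex mTORC1 (89364636 to 89412270, minus strand), stood at 30.5 and 31.4 TPM and at 13.2 and 10.2 TPM, a change of -1.34 ± 0.14. Both genes were picked for a large change without overlap, and their groups were far apart relative to the spread of either pair. Next came UST, the membrane protein DCBLD1 (-1.08 ± 0.09), the endoplasmic reticulum protein ERMARD (-1.06 ± 0.11) and COQ3, a methyltransferase of coenzyme Q synthesis, which went from 66.3 and 72.1 TPM to 34.5 and 31.9 TPM (-1.04 ± 0.08). The adenylate kinase AK9 (-0.98), the mitochondrial factor MTRES1 (-0.93), MARCKS (-0.93) and the mitochondrial LYR-motif protein LYRM2 (-0.91) completed the 10 largest falls among these genes. LYRM2 shares 27.2% of its exon bases with a neighbouring gene on the opposite strand. Below that level SRSF12, a splicing regulator, went from 3.08 and 3.11 TPM to 0.0672 and 0.168 TPM, or from 179 to 6 rebuilt reads, and also passed.

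Of the 15 genes that rose, GRIK2 had the largest change on the log2(TPM + 1) scale. GRIK2, a subunit of kainate-type glutamate receptors (101181257 to 102070083, plus strand), stood at 2.29 and 2.90 TPM in shControl and at 20.6 and 19.9 TPM in shSASH1, 7.81-fold higher, with a log2 change of 2.57 ± 0.14. TENT5A, a poly(A) polymerase (81491439 to 81752774, minus strand), stood at 2.65 and 2.91 TPM and at 14.5 and 15.2 TPM, 5.34-fold higher (2.07 ± 0.12). SIM1, a transcription factor of the bHLH-PAS family, stood at 12.4 and 10.5 TPM and at 32 and 33.6 TPM (1.45 ± 0.11). These 3 genes were also picked for a large change without overlap, and the libraries of a group lay close together and far from the other group. The dystrophin relative utrophin, UTRN, rose from 10.3 and 9.13 TPM to 18.7 and 20.1 TPM (0.94 ± 0.11). TPBG, an oncofetal surface glycoprotein, stood at 102 and 98.5 TPM in shControl and at 147 and 199 TPM in shSASH1 (0.77 ± 0.15), and the laminin alpha chain LAMA4 at 18.7 and 17.8 TPM and at 25.9 and 38 TPM (0.75 ± 0.19), so that the shSASH1 libraries differed in how far both rose. FAM184A (0.57), the Src-related kinase FRK (0.55), the phosphatase inhibitor PPP1R14C (0.53) and the helicase ASCC3 (0.46) followed. LAMA4 did not pass after quantile normalization, without a filter or without a variance trend, and FAM184A did not pass without a filter or with a replicate block.

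**Figure D3:**
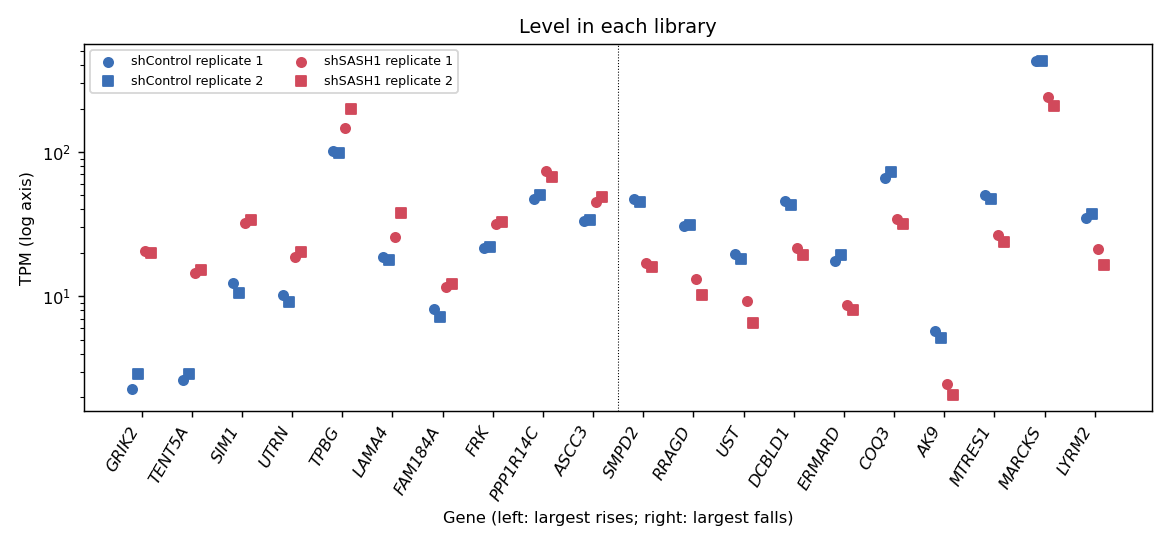
TPM (vertical log axis) of the 10 genes with the largest rise (left of the dotted line) and the 10 with the largest fall (right) in each of the 4 libraries, shControl in blue and shSASH1 in red. The choice of these 20 genes required at least 5 TPM in a group and groups that do not overlap, so the red and blue points are apart in each. GRIK2 lies at 2.29 to 20.6 TPM and MARCKS at 209 to 429 TPM.

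The bases just before the start are shown for the genes with the largest rise and fall for which RefSeq gave a sequence, to set promoters of genes on the same arm that moved in opposite directions side by side. Each is the 250 bases before the RefSeq start on GRCh38.p14, 5′ to 3′ on the gene's strand. Capitals mark the GC box GGGCGG, the CCAAT box CCAAT, the TATA box TATAAA and the TEAD core GGAATG, each on either strand.
GRIK2, chr6:101393458-101393707, plus strand: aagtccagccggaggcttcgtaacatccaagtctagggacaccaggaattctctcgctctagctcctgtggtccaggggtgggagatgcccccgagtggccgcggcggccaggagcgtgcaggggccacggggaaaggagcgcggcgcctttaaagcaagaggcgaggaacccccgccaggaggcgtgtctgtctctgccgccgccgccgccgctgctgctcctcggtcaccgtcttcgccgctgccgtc
TENT5A, chr6:81752682-81752931, minus strand: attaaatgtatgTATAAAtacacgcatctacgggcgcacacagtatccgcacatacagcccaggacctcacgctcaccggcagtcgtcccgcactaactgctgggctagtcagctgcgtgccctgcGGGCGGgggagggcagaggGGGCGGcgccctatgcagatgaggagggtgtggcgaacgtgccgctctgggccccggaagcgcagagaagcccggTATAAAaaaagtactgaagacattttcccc
SMPD2, chr6:109440474-109440723, plus strand: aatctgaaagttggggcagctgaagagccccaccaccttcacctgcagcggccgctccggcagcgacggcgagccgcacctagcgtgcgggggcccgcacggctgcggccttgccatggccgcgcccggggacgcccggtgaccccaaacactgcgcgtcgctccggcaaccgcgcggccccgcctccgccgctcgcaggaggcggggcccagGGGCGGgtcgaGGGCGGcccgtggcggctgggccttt
UST, chr6:148746780-148747029, plus strand: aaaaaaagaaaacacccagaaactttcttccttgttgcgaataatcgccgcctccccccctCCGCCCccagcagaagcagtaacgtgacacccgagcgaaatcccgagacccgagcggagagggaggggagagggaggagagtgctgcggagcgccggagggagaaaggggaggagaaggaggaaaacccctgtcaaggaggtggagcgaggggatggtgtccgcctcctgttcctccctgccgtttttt

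The GRIK2 stretch held none of the 4 motifs. In all 4 genes the RefSeq start differs from the GENCODE position given above, by far the most in GRIK2. The TENT5A stretch held 2 GC boxes and 2 TATA boxes, the SMPD2 stretch 2 GC boxes and the UST stretch 1 GC box. RefSeq gave such a stretch for 165 of the 195 genes. A GC box was found in 72.1% of them, in 65.9% of the 10911 tested genes with a stretch and in 42.3% of all 27305 stretches. Among genes of the set it was found in 60 of 75 that fell, 54 of 78 that did not pass and 5 of 12 that rose. The last group is small, and these differences were not tested. The TEAD core, the site bound by the partners of YAP, was found in 8.48% of the set, in 9.48% of tested genes and in 11.9% of all stretches. A match is a description of letters and no sign of binding.

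The 3 neighbours SIM1, ASCC3 and GRIK2 all rose, and they were the only genes of the set that lie between 47.9 and 47.1 Mb before SASH1. On the side away from SASH1, each of the 7 genes from FBXL4 to CCNC had a change below 0, from -1.04 in COQ3 to -0.16 in PNISR-AS1. On the side towards SASH1, the ubiquitin ligase HACE1 (-0.05), the Popeye-domain genes BVES (-0.04) and POPDC3 (-0.02), the prolyl endopeptidase PREP (0.13) and the autophagy gene ATG5 (-0.08) were within 0.13 of 0 and did not pass. HACE1 stood at 19.5 and 19.1 TPM in shControl and at 17.2 and 20 TPM in shSASH1, and POPDC3 at 40.5 and 40.6 TPM and at 37 and 42.9 TPM, so that the groups overlapped in both. Further on, the amidotransferase subunit QRSL1 fell from 59.2 and 56.4 TPM to 38 and 36.4 TPM (-0.62). A p that misses the threshold does not show that a gene was unchanged.

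**Figure D4:**
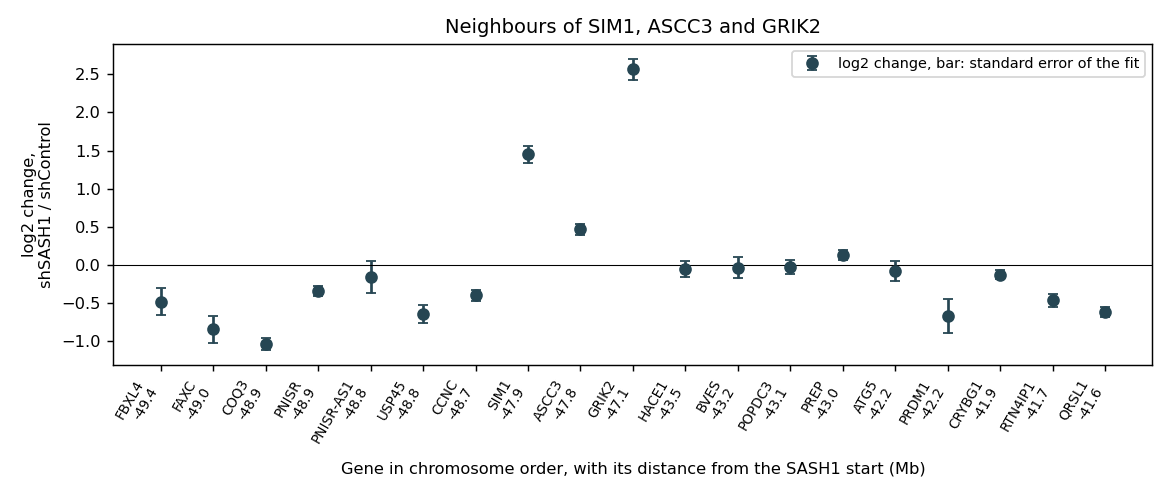
Log2 change between shSASH1 and shControl (vertical axis, bars are the standard error of the fit) for consecutive genes of the set (horizontal axis, in chromosome order with the distance from the SASH1 start in Mb). SIM1, ASCC3 and GRIK2 are above 0, the genes before them are below 0, and HACE1 to ATG5 lie close to 0.

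Around MARCKS and HDAC2 consecutive genes all fell. MARCKS, a membrane-bound protein kinase C substrate that binds actin (113857362 to 113863471, plus strand), stood at 425 and 429 TPM in shControl and at 240 and 209 TPM in shSASH1, a change of -0.93 ± 0.08. HDAC2, a histone deacetylase (113933028 to 114011308, minus strand), stood at 86.6 and 91.5 TPM and at 55 and 52.9 TPM (-0.71 ± 0.06). The lincRNA LINC02541 stood at 31.4 and 31.7 TPM and at 10.8 and 14 TPM (-1.29 ± 0.14), and LINC02518 at 11.8 and 14.2 TPM and at 2.51 and 1.57 TPM (-2.21 ± 0.21), from 101 to 15 rebuilt reads. That is the lowest change of the set on the log2(TPM + 1) scale, while as a ratio of TPM it was 6.36-fold lower and SRSF12 26.3-fold lower. All 4 had shSASH1 libraries below both shControl libraries, and whether the noncoding RNAs changed by more than MARCKS and HDAC2 was not tested.

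Longer runs of consecutive genes of the set below 0 lay on both sides of SASH1. The 6 miRNA hairpins and the tested genes left out by name were not counted in these runs. From MTHFD1L to DYNLT1, 20 genes were below 0 and 9 passed, with the hairpins MIR1273C (0.08) and MIR4466 (-0.06) among them by position. ESR1 (0.29) and TIAM2 (-0.36), left out by name, also lie in this stretch, and neither passed, so that it was not below 0 throughout. From AFDN to PDCD2, near the end of the chromosome, 10 were below 0 and 7 passed, with the hairpin MIR4644 (1.24) among them by position. PDCD2, 1 of the 7, went from 59.5 and 58.9 TPM to 35.4 and 36.3 TPM (-0.71 ± 0.06). From SMPD2 to TRAF3IP2-AS1, 16 were below 0 and 8 passed. The run from EPM2A to PCMT1, with 13 genes below 0 and 6 past the threshold, spans SASH1. The next genes of the set are LRP11, PPP1R14C and PLEKHG1, all above 0, of which the last 2 passed. PLEKHG1 went from 1.81 and 2.04 TPM to 4.87 and 3.73 TPM (0.85 ± 0.19). Between LRP11 and PPP1R14C lie tested genes that the rule leaves out by name, most of them below 0. There ULBP2 (0.24) was above 0, and ULBP1 (-0.50) was below 0 and passed. RAET1G (-0.15), RAET1K (-0.45), RAET1L (-0.57) and ULBP3 (-0.30) were below 0 and did not pass.

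The most abundant genes of the set shared the fall. CD24, a mucin-like surface glycoprotein of epithelial cells, stood at 1807 and 2008 TPM in shControl and at 1201 and 1146 TPM in shSASH1, a change of -0.70 ± 0.08; it has processed copies elsewhere in the genome, which makes its level uncertain. The splicing factor subunit SF3B5 stood at 428 and 458 TPM and at 293 and 308 TPM (-0.56 ± 0.07). TCP1, a subunit of the chaperonin that folds actin and tubulin, stood at 391 and 391 TPM and at 217 and 233 TPM (-0.80 ± 0.06). Like every gene of the set that passed, these 3 had no overlap between groups. The sorting nexin SNX3 (-0.59), the RNA polymerase III factor GTF3C6 (-0.83), the sialomucin CD164 (-0.73) and the RNA-binding protein SYNCRIP (-0.38) fell as well. Of the 10 most abundant genes, TPBG rose and UBE2J1, a ubiquitin-conjugating enzyme of the endoplasmic reticulum at 201 and 196 TPM in shControl and 167 and 196 TPM in shSASH1, did not pass.

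Grouped into lists, 8 of the 9 lists held more genes that fell than rose, and signalling held more that rose. The list of candidate tumour suppressors is not a functional group, and all 7 of its tested genes also stand in another list. Over the whole set 41.0% of genes fell and 7.69% rose past the threshold, and over all tested genes 13.3% and 18.8%. Of the 56 genes of the set in no list, 15 fell and 5 rose, with a median of -0.29. The lists were drawn from genes known to lie on 6q, so their directions are not independent of the choice of windows. Of 25 genes of mitochondria and metabolism, 16 fell and 1 rose, with a median of -0.51. The pyruvate carrier MPC1 went from 160 and 169 TPM to 103 and 81 TPM (-0.84 ± 0.13), and the polyamine enzyme AMD1 (-0.41) and the protein repair enzyme PCMT1 (-0.38) fell. Malic enzyme ME1 rose, from 90.9 and 84.9 TPM to 103 and 114 TPM (0.30 ± 0.08), but it did not pass under 7 of the settings that kept all 4 libraries. The coenzyme Q side-chain synthase subunit PDSS2 (-0.53), the branched-chain ketoacid dehydrogenase subunit BCKDHB (-0.51) and the mitochondrial arginyl-tRNA synthetase RARS2 (-0.33) fell too. Of 23 genes of transcription and chromatin, 12 fell and 0 rose, with a median of -0.47. Beside GTF3C6 and HDAC2 these included the Mediator cyclin CCNC, at 83.6 and 87.7 TPM in shControl and 61.8 and 67.4 TPM in shSASH1 (-0.40), while the nuclear factor AKIRIN2 (-0.20) did not pass. TBP, the TATA-binding protein, went from 45.6 and 45.1 TPM to 30.8 and 35.5 TPM (-0.45 ± 0.09), and the chromatin remodelling subunit PHF10 from 55.6 and 55.1 TPM to 27.9 and 37.7 TPM (-0.75 ± 0.15). The histone chaperone ASF1A (-0.47), the TFIIH subunit GTF2H5 (-0.66) and the Mediator kinase CDK19 (-0.29) fell. Of 26 genes of membrane traffic, glycosylation and the lysosome, 14 fell and 0 rose, with a median of -0.39. The translocon protein SEC63 fell from 112 and 110 TPM to 82.9 and 82.7 TPM (-0.41 ± 0.05), and NUS1, a subunit of the dolichol-making prenyltransferase, did not pass (0.03). The phosphoinositide phosphatase FIG4 (-0.62), the fucosyltransferase FUT9 (-0.79) and the Golgi PDZ protein GOPC (-0.57) fell.

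Of 12 genes of DNA replication, repair and the centrosome, 6 fell and 0 rose, with a median of -0.40. The origin recognition subunit ORC3 went from 80.6 and 75.4 TPM to 55.3 and 62.2 TPM (-0.41 ± 0.08), the anaphase-promoting complex inhibitor FBXO5 from 49.3 and 50.8 TPM to 37.2 and 35.4 TPM (-0.45 ± 0.07), and epsilon tubulin TUBE1 did not pass (-0.29). The helicase MCM9 fell from 9.80 and 10 TPM to 5.66 and 4.84 TPM (-0.81 ± 0.13). Of 18 genes of RNA processing, ribosome assembly and nuclear transport, 6 fell and 2 rose, with a median of -0.22. Beside SF3B5 and SYNCRIP the splicing protein PNISR (-0.34) and WTAP, a subunit of the RNA adenosine methylation complex (-0.72), fell, the nucleoporin NUP43 did not pass (-0.16), and the 2 that rose were TENT5A and ASCC3. Of 11 genes of ubiquitin, UFM1 and autophagy, 3 fell and 0 rose, with a median of -0.35. There the UFM1 ligase UFL1 fell from 47.1 and 47.4 TPM to 29.5 and 34.1 TPM (-0.56 ± 0.09), and UBE2J1 (-0.13), ATG5 and the BTK inhibitor IBTK (0.17) did not pass.

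The lists of signalling and of cell surface genes held more of the rises. Of 9 signalling genes, 2 fell and 3 rose, with a median of -0.06. The genes that rose were FRK, at 21.6 and 21.9 TPM in shControl and 31.8 and 32.6 TPM in shSASH1, PPP1R14C, at 47 and 50.3 TPM and 73.7 and 67.4 TPM, and the interleukin-17 receptor adaptor TRAF3IP2, at 21.8 and 22 TPM and 29.1 and 31.1 TPM (0.44 ± 0.08). In these 3, as in every gene of the set that passed, the groups did not overlap. The adhesion receptor ADGRG6 did not pass (-0.06). Of 15 genes of cytoskeleton, adhesion, matrix and the cell surface, 6 fell and 4 rose, with a median of -0.27. The falls included CD24, MARCKS and TCP1 and the rises TPBG, UTRN and LAMA4. Among 7 candidate tumour suppressors of 6q that were tested, 2 fell and 1 rose, with a median of -0.40. CCNC fell, UTRN rose, and HACE1 and the junction protein afadin, AFDN (62.8 and 61 TPM, then 54.2 and 47 TPM, -0.29), did not pass. The differences between lists were not tested.

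**Figure D5:**
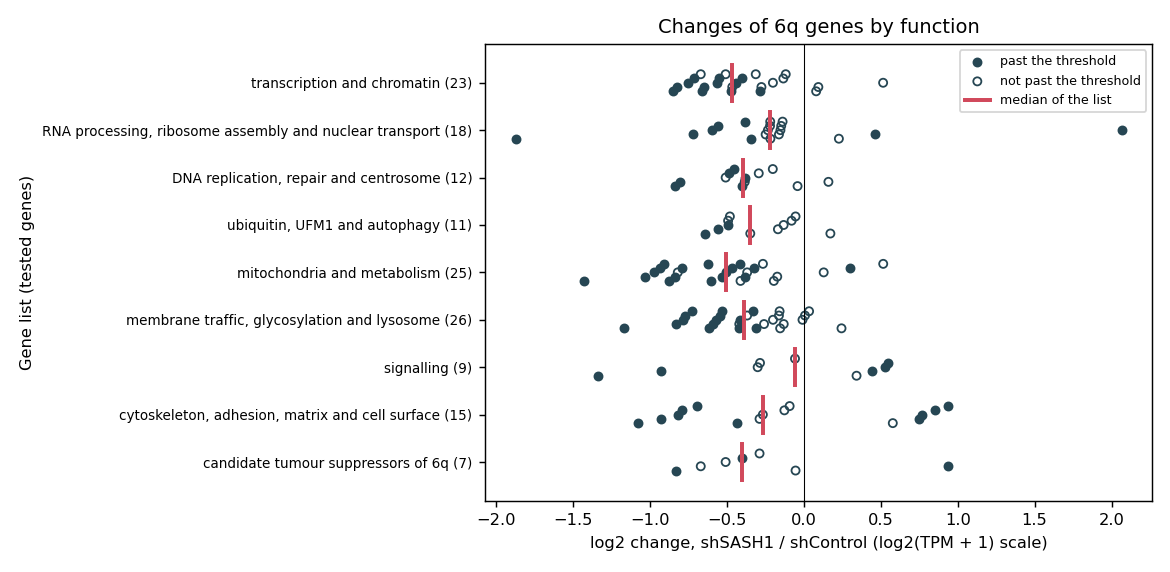
Log2 change between shSASH1 and shControl (horizontal axis) of each tested gene of 9 lists (rows, with the number of genes), filled where the gene passed the limma threshold and open where it did not, with the list's median as a red bar. Genes of the candidate tumour suppressor list also appear in another row. Every median is below 0, from -0.51 for mitochondria and metabolism to -0.06 for signalling.

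The 23 genes of the set that do not code for protein had a median of -0.05, with 3 lower and 2 higher past the threshold, against -0.40, 77 and 13 among the 172 protein-coding genes. Many were at low levels or shared sequence with another gene. The antisense RNA THBS2-AS1 was at 3.48 and 2.08 TPM in shControl and listed at 0 in both shSASH1 libraries, with 34 rebuilt reads against 0. AFDN-DT, the divergent transcript at AFDN, rose from 1.08 and 0.863 TPM to 2.26 and 2.59 TPM (0.80 ± 0.20) beside the change of -0.29 in AFDN. The 6 miRNA hairpins are short rows in a library made from total RNA, and 5 of them lie inside another tested gene. MIR548B, inside FAM184A, was called higher on 4 rebuilt reads in shSASH1 against 0. Over all genes of the set, 33 share exon bases with another tested gene and 5 share more than 20%. Without those 5 the median was -0.37, with 77 lower and 15 higher past the threshold.

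The widest differences between the shSASH1 libraries, with unnamed loci left out, were in genes of low level. Among unnamed loci the lincRNA ENSG00000233365 stood at 12.7 and 3.95 TPM in shSASH1 and at 4.08 and 3.86 TPM in shControl, and did not pass. The receptor kinase ROS1 stood at 3.82 and 0.924 TPM in shSASH1 and at 5.06 and 4.28 TPM in shControl, and the receptor accessory protein MRAP2 at 1.78 and 0.357 TPM and at 1.99 and 1.30 TPM. The GABA receptor subunit GABRR2 stood at 4.92 and 10.4 TPM in shSASH1 and at 2.91 and 2.16 TPM in shControl, higher in both but not past the threshold (1.23 ± 0.36). The hairpins MIR4644 and MIR4466 rest on at most 2 rebuilt reads per group. None of the 5 named genes passed, though GABRR2 did (limma adjusted p = 0.0419) when genes under 300 exon bases were left out.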

How the data were processed

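The deposited table gives TPM for each Ensembl gene in 4 libraries; the submitters' processing notes name STAR, DESeq2 and hg38, with neither role nor version. For the counter, the annotation, the gene lengths and strand, nothing is given in the sources used here. All 26518 identifiers were found in GENCODE release 29, which gave symbols, positions and exon lengths. Since TPM hides the depth, reads were estimated as TPM times exon length, scaled in each library until small values became whole. Of values up to 20 reads, 88.9% to 89.4% came within 0.05 of a whole number, and the totals were about 19527523 to 24361495 reads. Rebuilt reads are estimates and cover counting error only. Replicates of both groups differed by more than counting noise (chi-square per degree of freedom 2.30 in shControl and 26.7 in shSASH1), so each library was kept.

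Genes whose mean reached 1 TPM (14458) were tested on log2(TPM + 1) by limma (version 3.58.1, R version 4.3.3), with a variance trend, with two-sided p-values adjusted by Benjamini-Hochberg and a threshold of 0.05. With 2 libraries a side, the smallest two-sided exact permutation p is 0.333. The procedure was tested on simulated data. The members and lists were chosen with earlier results of these data known. Named genes were the 10 largest rises and falls past the threshold, with at least 5 TPM in a group and no overlap between groups. They also included the 4 most abundant of each list, the 10 most abundant and the 5 nearest to SASH1 on each side. Those at the edges of the rule and the 5 with the widest spread in shSASH1 completed them. LINC symbols were treated as unnamed loci, which that rule leaves out; LINC02518 and LINC02541 met the rest of it and are given. These, SRSF12, THBS2-AS1, AFDN-DT, MIR548B, the neighbours of GRIK2, the runs of neighbours and the further list members were named after their values were seen. Figures used Python 3.11.15 with matplotlib 3.10.9.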

Additional observations from a re-analysis of the deposited data

How the results depend on the processing

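The median log2 change of the 6q genes stayed below 0 in every setting tried. It moved by more than the spread of library medians in 4 of them besides the left-out libraries. It was -0.42 with median-of-ratios scaling, -0.43 after quantile normalization, -0.45 with voom on rebuilt reads and -0.31 with the genes from 120 to 140 Mb put in. The 62 genes put in there added 22 lower and 10 higher past the threshold, which brought the higher ones to 25. Over all tested genes 13.3% were called lower and 18.8% higher. Over all tested genes past the threshold (4630), asking also for a change of 1 log2 unit or more left 1288 of 14458. Among these were 4 of the 195 genes of 6q higher and 10 lower. The 1288 were not split by direction, so these counts show no excess of 6q genes at this limit. Leaving out each library in turn gave 0 to 7728 tested genes, 0 to 25 of the 6q genes higher and 0 to 99 lower past the threshold, medians of -0.39 to -0.32, and SASH1 changes of -1.73 to -1.54; the 0 came without either shControl library, where 3446 and 3326 tested genes were under an unadjusted p of 0.05 in limma and SASH1 had adjusted p = 0.106 and 0.104. The lone library is then assumed to vary like the other group. MAN1A1, at -0.01 with all libraries, was at 0.20 without shSASH1 replicate 1 and at -0.22 without shSASH1 replicate 2, and passed in both. The labels give only shared replicate numbers: deviations of same-numbered libraries correlated at -0.03 over genes, and with a replicate block 3929 tested genes passed, among them 12 of the 6q genes higher and 73 lower. Of the 66 named genes, 8 were lost without a variance trend and 6 without a filter. Genes of at least 300 exon bases were tried after seeing the data. With 2 libraries per group, small changes of low genes were not detectable.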

Other observations

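Of the 360 genes of the windows that were not left out by name, 165 were under a mean of 1 TPM and were not tested, and 59 of these were listed at 0 in all 4 libraries. In 3 of the 165 the shControl mean was at least 1 TPM, and in 0 the shSASH1 mean was. LINC02880, an antisense RNA between MARCKS and HDAC2 (chromosome 6, 113904138 to 113921642, plus strand), was at 1.29 and 1.81 TPM in shControl and at 0.0676 and 0 TPM in shSASH1, with 45 rebuilt reads against 1. RSPH4A, a radial spoke protein of motile cilia, was at 1.38 and 1.18 TPM in shControl and at 0.483 and 0.672 TPM in shSASH1, with 46 rebuilt reads against 19. The third, the hairpin MIR3692, rests on 1 rebuilt read. These genes were picked after their values were seen, and their differences were not tested.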
